A study of Homo sapiens with 8 samples.

Results

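Laminins, nidogens and perlecan are core proteins of the basement membrane, and 9 of their genes were described here, chosen by name: LAMA4, LAMA5, LAMB1, LAMB2, LAMB3, LAMC1, NID1, NID2 and HSPG2. All 9 were among the 25369 genes of the count table and among the 14570 that passed the filter on low counts. RNA-seq was performed on LX-2, a human hepatic stellate cell (HSC) line that is immortalized and labelled as wild type, grown on polyacrylamide hydrogels that carried a layer of plasma fibronectin. The gels were soft (2 kPa) or stiff (40 kPa), and cells were collected after 2 or 4 days, which gave 4 conditions with 2 libraries each. All groups shared the line, the fibronectin coat and the serum-containing DMEM, and a single line cannot stand for the spread between donors. Same-condition libraries are labelled as replicates, and their p-values measure the spread between cultures of this line only.

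The basement membrane is a thin sheet of matrix beneath epithelia and endothelia and around muscle, fat and some mesenchymal cells. A laminin is a cross-shaped trimer of an alpha, a beta and a gamma chain. The alpha chain carries the main sites for integrins and dystroglycan, while the short arms let trimers join into a polymer. Nidogens bind the gamma 1 chain and link the laminin polymer to collagen IV and perlecan, and perlecan carries heparan sulfate chains that hold growth factors. In liver, the space between hepatocytes and the sinusoidal endothelium lacks a continuous basement membrane, and laminin is laid down there during fibrosis. HSCs lie in that space and are known as a source of laminin.

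Each library held between 19955975 and 27263935 counts. The first principal component of log2 CPM (counts scaled to the TMM-corrected library size) took 62.8% of the variance and separated the days, and the second took 17.8% and set the replicates of the stiff matrix at 4 days apart, at -34.6 and 50.4. These replicates had the lowest quality weights of the 8 libraries, 0.217 and 0.221. Weights were nearly equal within each pair, such as 1.605 and 1.606 on soft gels at 2 days. They restate the gap between 2 replicates and do not show which of them is poorer. Results that use the stiff libraries of 4 days were recomputed without each one. Such a fit leaves 1 library in that condition, so the spread between these 2 does not enter its p-values and calls. Of 10 stellate cell or mesenchymal markers, 5 reached 1 FPKM (fragments per kilobase of gene, scaled for depth) in every library and 4 stayed under it in every library. VIM was at 921 to 2938 and COL1A1 at 83.9 to 171.7. LRAT, a marker of quiescent stellate cells, and DES, also among the 10, were at 0.0434 FPKM or less. Endothelial markers stayed under 1 FPKM in every library, 0 of 6 reaching it, and their sum was 0.444 to 1.03 FPKM. Among the hepatocyte genes, 5 of 6 stayed under 1 FPKM and the sum was 1.24 to 2.99. The 5 cholangiocyte or epithelial markers summed to 12.5 to 23.3 FPKM, and 2 of them, SOX9 and KRT7, reached 1 FPKM in every library. SOX9 was at 4.76 to 5.998 at 2 days and 10.2 to 13.9 at 4 days, while EPCAM, CDH1 and KRT19 were under 1. The macrophage or leukocyte markers summed to 48.7 to 66.7 FPKM, nearly all of it CD68, and 2 of the 5 in the table reached 1 FPKM in every library. CD163 was at 0, and PTPRC rose from at most 0.153 to at least 0.268 FPKM. The part that these marker shifts play in the results was not tested. In bulk RNA, fewer expressing cells and less RNA per cell cannot be told apart.

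The relative RNA levels of the chains were read from FPKM, which is scaled by gene length but not corrected for GC content. Log2 CPM, relative to the mean of all libraries, ran with GC content at a Spearman rho from -0.605 to 0.629. Levels of genes that differ in GC content are therefore compared only roughly, and RNA does not show which trimers were assembled. LAMC1, the gamma 1 chain shared by most laminins, had the highest level in all 4 conditions, with a mean of 55.3 ± 0.744 FPKM (SD, n = 2) on soft gels at 2 days and 41.0 ± 11.6 on stiff gels at 4 days. LAMB2, the beta 2 chain, came next in each condition, at 39.9 ± 1.77 and 23.7 ± 1.42 FPKM in the same conditions. LAMB3 and LAMB1, the beta 3 and beta 1 chains, followed at 13.9 to 20.9 FPKM. Their libraries overlapped in 3 of the 4 conditions, and on soft gels at 4 days LAMB1 also overlapped LAMB2, so that the order of these neighbours was not resolved there. NID1, the more abundant nidogen here, lay at 8.53 to 12.7 FPKM and stayed above LAMA5, the alpha 5 chain, without overlap in each condition. HSPG2, which encodes perlecan, exceeded NID2 at 2 days, while at 4 days NID2 was higher on soft gels and the 2 genes overlapped on stiff gels. LAMA4, the alpha 4 chain of mesenchymal and endothelial laminins, had the lowest mean of the members in each condition, at 0.523 to 1.62 FPKM. At 4 days it overlapped HSPG2 on both matrices, and in the second stiff library HSPG2, at 0.582 FPKM, was lower than LAMA4, at 0.916.

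**Figure D1:**
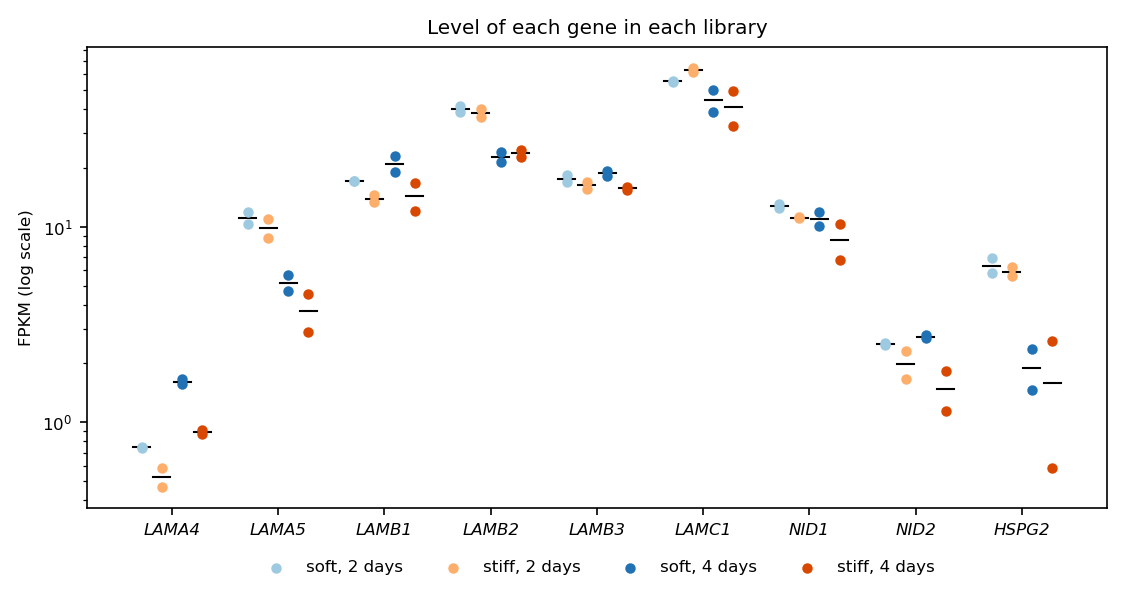
FPKM on a log axis of the 9 genes in each of the 8 libraries, with points for libraries and black bars for the means of the 2 libraries of a condition. LAMC1 lies highest, at 32.8 to 64.7 FPKM, LAMA4 lies at 0.465 to 0.752 at 2 days and at 0.876 to 1.67 at 4 days, and HSPG2 lies at 5.57 to 6.88 at 2 days and at 0.582 to 2.59 at 4 days.

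Several other laminin chains were low. LAMA1 was at 0.725 to 1.03 FPKM, LAMA3 at 0.266 to 0.800 and LAMA2 at 0.0372 to 0.196. LAMB4 had at most 12 counts, and LAMC3 had 2 counts in the first library of the stiff matrix at 2 days and 0 in the other 7.

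**Figure D2:**
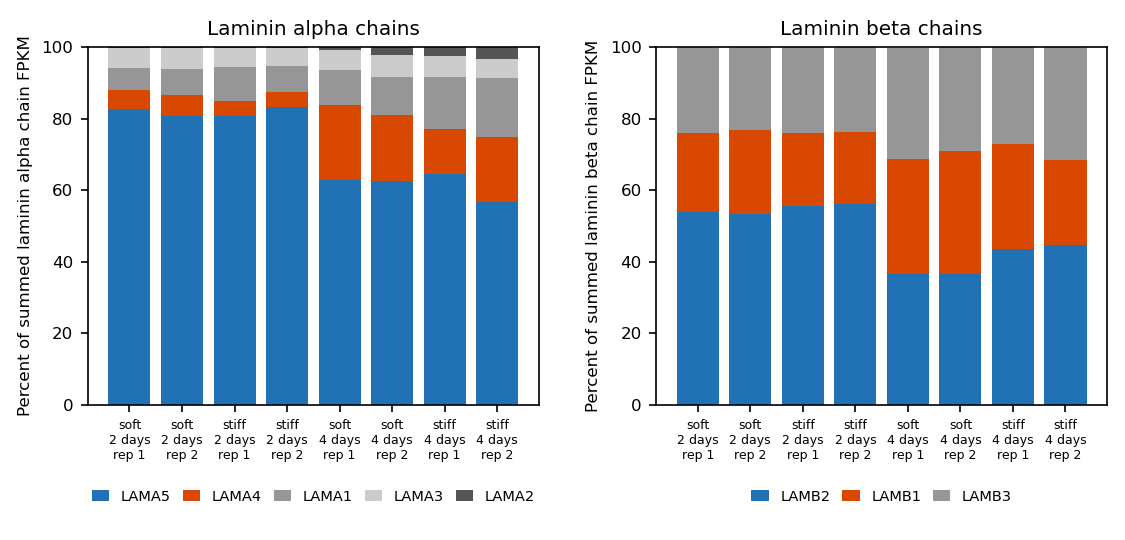
Share in percent of the summed FPKM of the laminin alpha chains and of the beta chains in each library, stacked from 0 to 100, with rep for the replicate number. LAMA5 takes 80.6% to 83.1% of the alpha chains at 2 days and 56.8% to 64.6% at 4 days, and LAMB2 takes 53.2% to 56.0% of the beta chains at 2 days and 36.5% to 44.7% at 4 days. LAMB4, at most 0.162% of the beta chains, is not drawn.

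The alpha chain mix differed between the days. LAMA5 held 80.6% to 83.1% of the alpha chain FPKM at 2 days and 56.8% to 64.6% at 4 days, while LAMA4 went from 4.26% to 5.81% up to 12.5% to 21.0%. The share of LAMA1 was also higher at 4 days, at 9.75% to 16.5% against 6.12% to 9.42%. It exceeded that of LAMA4 in every library of 2 days and in the first stiff library of 4 days (14.6% against 12.5%). The ratio of LAMA5 to LAMA4 was 15.8 and 13.9 on soft gels and 18.9 and 18.9 on stiff gels at 2 days. At 4 days it was 2.99 and 3.38 on soft gels and 5.16 and 3.15 on stiff gels, so that no library of one day reached the range of the other. Among the beta chains, the ratio of LAMB2 to LAMB1 was 2.26 to 2.76 at 2 days and 1.06 to 1.88 at 4 days. These ratios are descriptions of each library, and no test was run on them. In the edgeR estimates, the log2 ratio of LAMA5 to LAMA4 changed over time by -2.21 on soft and -2.19 on stiff gels, and by -1.19 and -1.25 with offsets for GC content and length. That of LAMB2 to LAMB1 changed by -1.10 and -0.73, and by -0.67 and -0.33 with the offsets.

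Between 2 and 4 days, the members split into a rise and several falls. On soft gels 1 of the 9 genes rose (LAMA4) and 2 fell (LAMA5 and LAMB2), where 14.1% of all tested genes rose, 13.3% fell and 27.4% were called in either direction. On stiff gels LAMA4 rose and LAMA5, LAMB2 and HSPG2 fell, 4 of 9, against 14.0% of all genes rising, 13.7% falling and 27.6% called in all. A gene was called at a Benjamini-Hochberg adjusted p under 0.05 in edgeR's quasi-likelihood test. The median log2 fold change of the members was -0.20 on soft and -0.41 on stiff gels, and that of all genes 0.02 and 0.03. Estimates were below 0 for 5 and 7 of the 9 members, against 49.1% and 48.2% of all genes. Groups of 2 separate often: 38.5% of all tested genes had both 4-day libraries above both 2-day ones on soft gels and 36.7% had both below, and on stiff gels 31.6% and 31.1%. Fitted on the 4 stiff libraries alone, none of the 4 stiff calls and no gene of the table passed (edgeR adjusted p = 0.112 for LAMA4, 0.0650 for LAMA5, 0.0908 for LAMB2 and 0.144 for HSPG2), with estimates of 0.79, -1.40, -0.67 and -1.87. The comparisons over time and those between the matrices use the same 8 libraries and so share samples.

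LAMA4 was at 5.70 and 5.61 CPM on soft gels at 2 days and at 11.9 and 12.9 at 4 days. The stiff gels gave 3.53 and 4.40 CPM at 2 days and 6.68 and 7.03 at 4 days. Every 4-day library lay above both 2-day libraries of its matrix. The log2 fold change was 1.13 ± 0.17 (SE, 2.19-fold) on soft gels, with an edgeR adjusted p of 0.00442. For the stiff matrix it was 0.79 ± 0.18 (1.73-fold), with an edgeR adjusted p of 0.0171. LAMA4 rested on 84 to 286 counts per library. Without the first soft library of 2 days the call on soft gels was lost, at 1.14 with an edgeR adjusted p of 0.0625, and without the first or second stiff library of 2 days that on stiff gels was lost, at 0.64 (edgeR adjusted p = 0.140) and 0.95 (edgeR adjusted p = 0.0758). The stiff call was also lost with voom and sample weights (0.79, limma adjusted p = 0.142) and with limma on log2(FPKM + 1) (0.32 on that scale, limma adjusted p = 0.0607). Without the first and the second stiff library of 4 days the stiff estimate was 0.82 and 0.74.

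LAMA5, whose trimers are widespread in adult basement membranes, moved in the opposite direction. It was at 135.8 and 117.8 CPM on soft gels at 2 days and at 53.8 and 65.9 at 4 days. The stiff gels gave 100.8 and 125.4 CPM at 2 days and 52.1 and 33.5 at 4 days. The days did not overlap on either matrix. The log2 fold change was -1.08 ± 0.23 on soft gels (2.12-fold lower, edgeR adjusted p = 0.0137) and -1.40 ± 0.23 on stiff gels (2.64-fold lower, edgeR adjusted p = 0.00611). Leaving out any 1 of the 4 soft libraries ended the call on soft gels, with estimates from -1.24 to -0.97 and edgeR adjusted p-values from 0.0558 to 0.118, and leaving out the second stiff library of 2 days ended that on stiff gels, at -1.24 (edgeR adjusted p = 0.0672). The stiff estimate was -1.76 without the first stiff library of 4 days and -1.13 without the second. Exons of LAMA5 overlap exons of ADRM1 on the opposite strand, in 9 exon records that count an exon once per transcript. Since the strand setting of the counting is not given in the sources used here, reads of the pair may not be separated. ADRM1 had 9026 to 11270 counts at 2 days and 4763 to 5921 at 4 days. HSPG2 likewise overlaps LDLRAD2, in 4 such records and with at most 8 LDLRAD2 counts per library. LAMB1 overlaps DLD, in 1 such record, and DLD had 3343 to 4601 counts.

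LAMB2 fell on both matrices. The beta 2 chain was at 239.5 and 224.2 CPM on soft gels at 2 days and at 125.2 and 143.5 at 4 days. The stiff gels gave 210.8 and 231.9 CPM at 2 days and 144.7 and 133.7 at 4 days. No library of one day entered the range of the other. The log2 fold change was -0.79 ± 0.14 (1.73-fold lower, edgeR adjusted p = 0.00653) on soft gels and -0.67 ± 0.14 (1.59-fold lower, edgeR adjusted p = 0.0114) on stiff gels. The soft call was lost without the first library of 2 days (-0.74, edgeR adjusted p = 0.0783) or the first of 4 days (-0.72, edgeR adjusted p = 0.0653), and the stiff call without either library of 2 days (-0.74 and -0.60, edgeR adjusted p = 0.0676 and 0.122). Without the first and the second stiff library of 4 days the stiff estimate was -0.73 and -0.62.

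HSPG2 had the largest estimated change over time and the largest standard error of the members. It was at 98.9 and 82.9 CPM on soft gels at 2 days and at 21.0 and 34.5 at 4 days. The stiff gels gave 80.1 and 88.7 CPM at 2 days, and at 4 days 37.5 in the first library and 8.47 in the second. Both days were apart on each matrix, but the 2 stiff libraries of 4 days lay on either side of the soft ones. The log2 fold change was -1.71 ± 0.56 on soft gels, which did not pass the test (edgeR adjusted p = 0.0566), and -1.87 ± 0.57 on stiff gels, which did (3.66-fold lower, edgeR adjusted p = 0.0436). A fit without 1 stiff library of 4 days keeps a single one, so the gap between 37.5 and 8.47 CPM does not enter its test. The stiff estimate was -3.32 without the first stiff library of 4 days and -1.18 without the second. It was no longer called when any of the other 6 libraries was left out, at -1.94 to -1.80 with edgeR adjusted p-values of 0.0583 to 0.173, and without scaling factors (-1.95, edgeR adjusted p = 0.0528). On soft gels the estimate of HSPG2 was -1.73 without the first stiff library of 4 days and -1.74 without the second, in fits that again lack that gap.

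LAMB1, LAMB3, LAMC1, NID1 and NID2 were not called over time on either matrix in edgeR's test. LAMC1 came nearest, at 511.2 and 485.5 CPM on stiff gels at 2 days and at 391.0 and 261.9 at 4 days. Its log2 fold change there was -0.61 ± 0.21 (edgeR adjusted p = 0.0682), and DESeq2 called it (-0.62, adjusted p = 0.0296). Without the first stiff library of 4 days the estimate was -0.93. LAMB3 stayed within 69.8 to 88.1 CPM over all 8 libraries, with a 95% interval of the log2 fold change from -0.18 to 0.40 on soft and from -0.33 to 0.25 on stiff gels. For LAMB1 the intervals were -0.10 to 0.73 and -0.35 to 0.48, and its estimate on stiff gels, 0.07, was -0.18 without the first stiff library of 4 days. The nidogens, which bridge laminin to the collagen network, had estimates of -0.20 (NID1) and 0.15 (NID2) on soft gels. On stiff gels these were -0.37 and -0.41, and without the first stiff library of 4 days they were -0.70 and -0.79. On soft gels the calls that appeared when either stiff library of 4 days was left out were LAMB1 (0.30 and 0.28), LAMC1 (-0.32 and -0.33) and HSPG2, which took the count of members called from 3 to 6. The share of all genes called rose as well, from 27.4% to 52.9% without the first and 52.7% without the second.

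**Figure D3:**
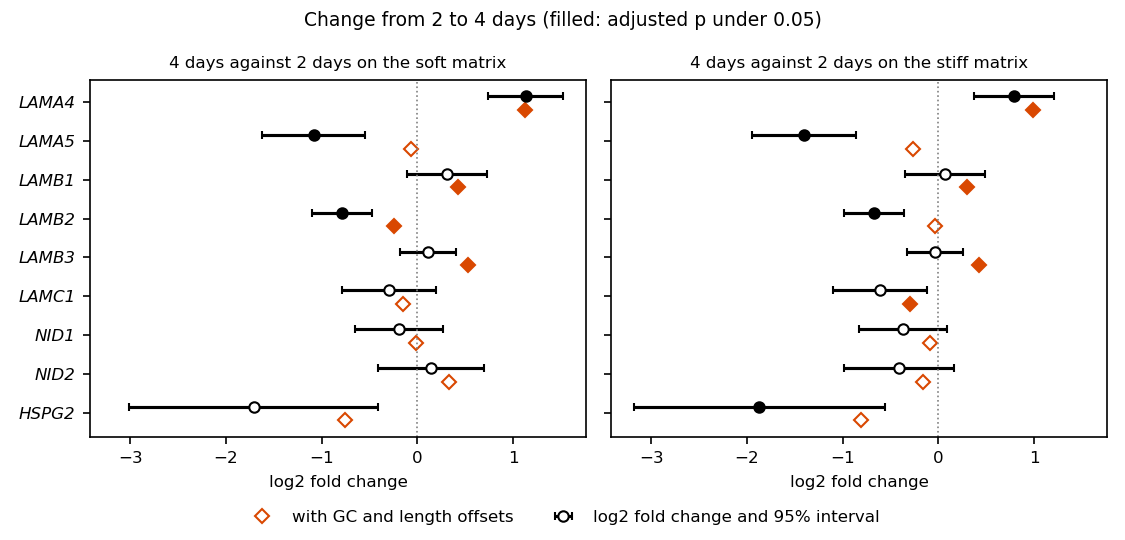
Log2 fold change from 2 to 4 days of each gene on soft gels and on stiff gels, with circles and bars for the edgeR estimate and its 95% interval and diamonds for the estimate with per-library offsets for GC content and length. Filled symbols have an adjusted p under 0.05. With the offsets LAMA4 moves from 1.13 and 0.79 to 1.12 and 0.99, and LAMA5 moves from -1.08 and -1.40 to -0.06 and -0.27.

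The members that fell were those with the highest GC content. Transcript GC content was 66.4% for LAMA5, 64.5% for HSPG2 and 60.3% for LAMB2, at the 97.8th, 95.3rd and 84.9th percentile of tested genes, and 45.1% for LAMA4, at the 36.4th. Over all genes the change with time ran against GC content, with a Spearman rho of -0.573 on soft and -0.443 on stiff gels, given as a description. Among the 3528 genes with a GC content above 57.1%, 32.7% fell and 1.39% rose on soft gels, and 30.4% fell and 1.84% rose on stiff gels. LAMB3, with 58.9% GC, is among them too, and its estimates over time were 0.11 and -0.04. What produced the relation with GC content was not tested.

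An edgeR fit with offsets per library for GC content and length, added after the data had been seen, gave other calls for several members. LAMA4 was called on both matrices, at 1.12 on soft (edgeR adjusted p = 0.00719) and 0.99 on stiff gels (edgeR adjusted p = 0.0146). LAMA5 was no longer called, at -0.06 (edgeR adjusted p = 0.768) and -0.27 (edgeR adjusted p = 0.201). LAMB2 was called on soft gels, at -0.25 (edgeR adjusted p = 0.0407), and not on stiff gels, at -0.04 (edgeR adjusted p = 0.713). The estimates of HSPG2 were -0.76 and -0.81, not called (edgeR adjusted p = 0.258 and 0.224). LAMB1 was called higher on both matrices, at 0.42 and 0.30 (edgeR adjusted p = 0.00748 and 0.0264). The same held for LAMB3, at 0.53 and 0.43 (edgeR adjusted p = 0.00380 and 0.00814), and LAMC1 was called lower on stiff gels, at -0.30 (edgeR adjusted p = 0.0341). Among the members, the rise of LAMA4 was thus the change over time that passed the test on both matrices in both fits.

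**Figure D4:**
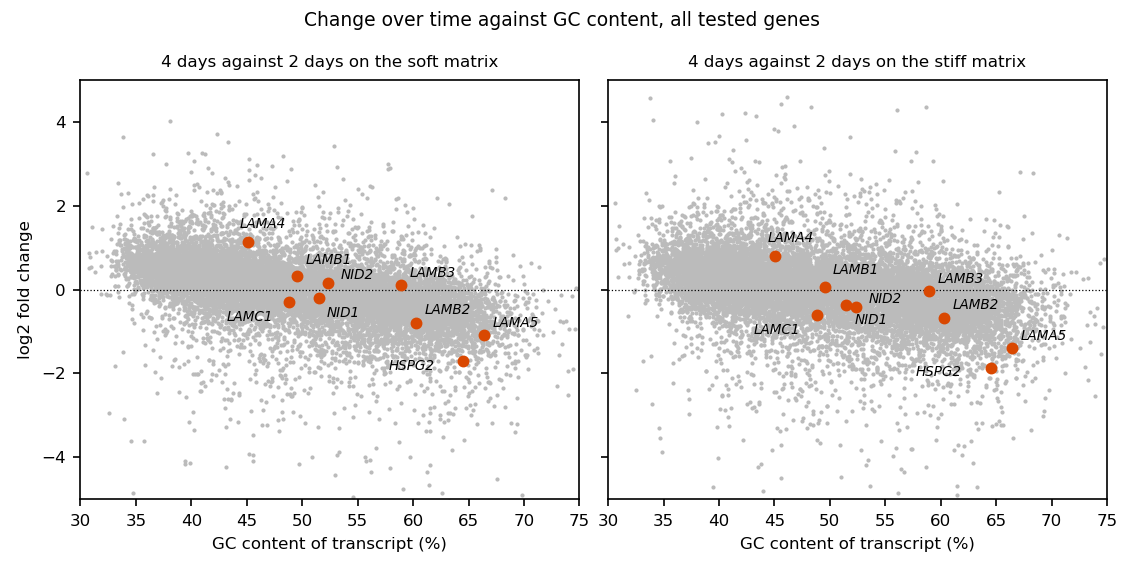
Log2 fold change from 2 to 4 days against the GC content of the transcript in percent, on soft and on stiff gels, with a grey point for each tested gene and orange points for the 9 genes. LAMA5, HSPG2 and LAMB2 lie at high GC content and below 0, LAMA4 lies at 45.1% and above 0, and 453 genes without a GC value and a few genes outside the axes are not drawn.

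In GRCh37, with the GENCODE v44lift37 annotation, LAMA4 lies on chr6:112429134-112576141 with 39 exons, LAMA5 on chr20:60883011-60942368 with 80, LAMB2 on chr3:49158547-49170551 with 32 and HSPG2 on chr1:22148737-22263803 with 97, the exons being those of the canonical transcript. The windows upstream of the start sites are shown for LAMA4, which rose, and for LAMA5, LAMB2 and HSPG2, which fell on at least 1 matrix, so that their base composition can be compared. Each is the 250 bases before the start in the RefSeq promoter table (GRCh38.p14), written on the gene's strand, which is the minus strand for all of them. Capitals mark GGGCGG, the GC box, on either strand. The LAMA4 window is chr6:112254568-112254817, that of LAMA5 chr20:62367313-62367562, that of LAMB2 chr3:49133051-49133300 and that of HSPG2 chr1:21937311-21937560.
LAMA4: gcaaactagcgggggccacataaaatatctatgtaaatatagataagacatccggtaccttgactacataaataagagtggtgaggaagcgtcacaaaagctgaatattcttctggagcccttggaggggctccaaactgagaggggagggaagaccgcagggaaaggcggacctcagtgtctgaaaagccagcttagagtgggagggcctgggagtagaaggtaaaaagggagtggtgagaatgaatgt
LAMA5: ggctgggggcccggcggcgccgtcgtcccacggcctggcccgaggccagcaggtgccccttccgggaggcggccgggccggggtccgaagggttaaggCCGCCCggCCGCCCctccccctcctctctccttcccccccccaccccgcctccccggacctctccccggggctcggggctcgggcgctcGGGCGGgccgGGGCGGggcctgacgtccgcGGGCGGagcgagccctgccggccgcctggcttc
LAMB2: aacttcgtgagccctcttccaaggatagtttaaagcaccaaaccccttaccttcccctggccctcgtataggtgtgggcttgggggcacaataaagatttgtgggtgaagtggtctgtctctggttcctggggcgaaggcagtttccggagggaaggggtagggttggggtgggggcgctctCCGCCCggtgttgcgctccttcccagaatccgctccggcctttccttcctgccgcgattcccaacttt
HSPG2: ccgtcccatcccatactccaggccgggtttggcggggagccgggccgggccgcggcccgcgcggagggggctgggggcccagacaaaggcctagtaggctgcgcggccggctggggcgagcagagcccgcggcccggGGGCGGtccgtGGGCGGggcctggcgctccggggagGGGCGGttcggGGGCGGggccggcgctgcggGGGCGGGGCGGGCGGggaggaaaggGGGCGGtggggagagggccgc

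The LAMA4 window held 48.4% G and C and no GGGCGG, whereas those of LAMA5 and HSPG2 each held 82.8%, with 5 and 8 matches, and that of LAMB2 58.4% with 1 match. Matches were counted on both strands and could overlap. The median window held 58% G and C, and 42.6% of the 35116 windows in the table held GGGCGG. All 9 genes matched the table, LAMB3 with 3 windows. LAMB1, LAMC1, NID1, NID2 and LAMB3 were not called over time in the edgeR fit to all 8 libraries without offsets. The windows of the first 4 held 68.0% to 79.6% G and C and 1 to 4 matches. Those of LAMB3 held 54.0% to 64.0% with 1 match each. A GC-rich window was thus not particular to the genes that fell. TGANTCA, the AP-1 site, was in 1 of the LAMB3 windows and in no other window of the members, and 6.57% of all windows hold it. TATAAA was in none of the members' windows and in 10.7% of all windows.

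In the comparison of stiff with soft gels at 2 days, which asks whether early culture on a stiff gel changes these genes, no member was called, where 0% of all genes were called (0 of 14570 in edgeR's quasi-likelihood test, with 411 at an unadjusted p under 0.05, and 28 called by DESeq2). Estimates were negative for 8 of 9 members against 48.3% of all genes, with a median of -0.17 against 0.01. LAMA4 had the largest difference in size, at -0.51 ± 0.18 (edgeR adjusted p = 0.9999, 95% interval -0.92 to -0.10), its stiff libraries lying below the soft ones. Those of LAMB1, NID1 and NID2 did too, as for 22.4% of all tested genes, while 25.7% had both stiff libraries above both soft ones. LAMC1 was the exception in sign, at 441.3 and 431.4 CPM on soft and 511.2 and 485.5 on stiff gels, with an estimate of 0.19 ± 0.21. When the 4 libraries of 2 days were fitted on their own, LAMB1 was called lower, at -0.31 (edgeR adjusted p = 0.0215).

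After 4 days no member was called between the matrices, while 0.247% of all genes were (36, of which 31 were lower on stiff gels, 0.213% of all, and 5 higher, 0.0343%). Estimates were again negative for 8 of 9 members, against 46.6% of all genes, and the median was -0.37 against 0.02. LAMA4 was at 11.9 and 12.9 CPM on soft and 6.68 and 7.03 on stiff gels, without overlap, and its log2 fold change was -0.86 ± 0.17 (1.81-fold lower, 95% interval -1.25 to -0.46). Its unadjusted p was 0.00116 and its edgeR adjusted p 0.158, while DESeq2 called it (-0.85, adjusted p = 0.0299). NID2 was at 14.1 and 13.8 CPM on soft and 9.28 and 5.82 on stiff gels, also without overlap, at -0.88 ± 0.25 (edgeR adjusted p = 0.379). LAMA5, LAMB1 and LAMB3 were lower without overlap too. Over all tested genes 14% had both stiff libraries below both soft ones, and 11.7% had both above. The beta 1 chain gene LAMB1 was at 111.6 and 136.4 CPM on soft and 98.3 and 71.6 on stiff gels, at -0.55 ± 0.18 (edgeR adjusted p = 0.493), and was called with the GC and length offsets (-0.48, edgeR adjusted p = 0.0426). LAMB2 was the exception, with 125.2 and 143.5 CPM on soft and 144.7 and 133.7 on stiff gels, which overlapped, and an estimate of 0.05.

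**Figure D5:**
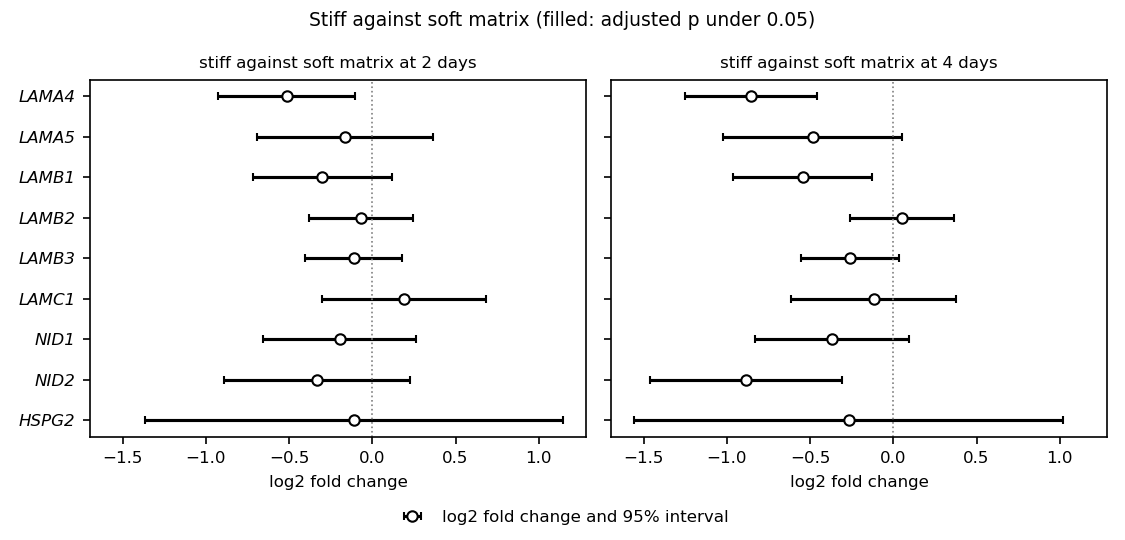
Log2 fold change between stiff and soft gels for each gene, with a panel for 2 days and a panel for 4 days, as the edgeR estimate (open circle, adjusted p of 0.05 or more) with its 95% interval. At 4 days the estimates of LAMA4 and NID2, -0.86 and -0.88, lie farthest below 0, and the interval of HSPG2 runs from -1.56 to 1.02.

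The 4-day comparison turned on which of the 2 stiff libraries was used. A fit without 1 of them rests on a single stiff library at 4 days, so the spread between the 2 does not enter its calls. Without the first one 7 members were called lower on stiff gels, LAMA4, LAMA5, LAMB1, LAMC1, NID1, NID2 and HSPG2, with estimates from -1.70 for HSPG2 to -0.43 for LAMC1, and 4676 of all genes were called (31.1%, with 14.6% lower). Without the second one LAMA4 alone was called (-0.88, edgeR adjusted p = 0.0199), beside 3.63% of all genes, and HSPG2 was at 0.44 and LAMC1 at 0.15. The estimate of LAMA4 without the first one was -0.81. Log2 CPM of the stiff 4-day libraries, relative to the mean of all libraries, ran with gene length at a Spearman rho of 0.296 in the first and -0.427 in the second, and HSPG2 and LAMA5, at 14343 and 11431 bases, are at the 99.0th and 97.9th percentile of length. With GC and length offsets the estimate of HSPG2 between the matrices at 4 days was -0.19, against -0.27 without them.

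Whether the stiffness effect changed from 2 to 4 days was tested as an interaction. No member and 0% of all genes were called in edgeR's test, with 284 genes at an unadjusted p under 0.05 and 3 called by DESeq2. The estimate for NID2 was -0.55 ± 0.35 and that for LAMA4 -0.34 ± 0.25, with edgeR adjusted p-values of 0.9997. Without the first stiff library of 4 days, LAMA5, LAMC1, NID2 and HSPG2 were called, at -0.66, -0.61, -0.92 and -1.59, with edgeR adjusted p-values of 0.00206 to 0.0309, beside 20.9% of all genes called, 9.85% lower. Without the second, no member was called.

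Members also differed in how they went together over the 8 libraries. LAMA5 and HSPG2 had a Pearson r of log2 CPM of 0.963, LAMC1 and HSPG2 0.947, and LAMA5 and LAMB2 0.936. LAMA4 ran against LAMB2, at -0.769, and against LAMA5, at -0.558, and LAMB1 went with NID2, at 0.817. All 8 points share the day effect and the library depth, and 2 libraries form each condition, so these values are a description. The 3 genes most like LAMA4 were MAMDC2, PLEKHA4 and DTX3L (r of 0.995, 0.994 and 0.994). Those most like HSPG2 were GPRASP1, PHF12 and KDM5C (0.997, 0.997 and 0.996), those most like LAMA5 EVC2, STAT6 and MADD (0.997, 0.997 and 0.995), and those most like LAMB2 RNF31, DALRD3 and FBXL8 (0.996, 0.995 and 0.995). For LAMC1 they were ELMSAN1, DIP2B and HMGXB3 (0.995, 0.994 and 0.993), for NID1 FHL1, NRP2 and DNMT3B (0.991, 0.989 and 0.989) and for LAMB1 SAMD9L, BHLHE41 and FZD4 (0.987, 0.983 and 0.978). NID2 was most like BTN3A1, CCDC146 and HMGCS1 (0.981, 0.979 and 0.973), and LAMB3 was most like CAMK2A, TSPAN9 and SEZ6L2 (0.971, 0.957 and 0.955).

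Around the 9 genes, 58 other genes of the basement membrane were listed, of which 51 were tested. Over time 7 rose and 5 fell on soft gels, and 9 rose and 12 fell on stiff gels, in edgeR's test. These are 23.5% and 41.2% of the 51, against 27.4% and 27.6% of all genes. Among the other laminin chains LAMA2, the alpha 2 chain of muscle laminin, rose on both matrices (1.81 ± 0.52 and 2.08 ± 0.52) from 9 to 11 counts per library at 2 days to 15 to 43 at 4 days, and LAMA3 fell on stiff gels (-0.84 ± 0.26, edgeR adjusted p = 0.0462), a call lost without the second stiff library of 4 days (-0.58, edgeR adjusted p = 0.0585). With all libraries, none of the 6 tested genes of the collagen IV group was called in any comparison, and none of the 51 genes was called at 2 days or in the interaction. Calls in the collagen IV group differed when the first stiff library of 4 days was left out. That fit keeps a single stiff library of 4 days, so the spread between the pair does not enter its calls. The absence of calls with all libraries does not show that these genes stayed the same. Of 13 tested other components, 2 rose and 3 fell on soft and 4 rose and 4 fell on stiff gels. Over all tested genes, 14.1% rose and 13.3% fell on soft gels, and 14.0% rose and 13.7% fell on stiff gels. Of the other basement membrane components, FBLN1, a fibulin that binds laminin and nidogen, rose (1.003 ± 0.20 on soft and 1.51 ± 0.20 on stiff gels), and HMCN1, hemicentin 1, fell (-1.38 ± 0.35 and -3.82 ± 0.48, from 47 to 74 counts at 2 days to 2 to 19 at 4 days).

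Of the 11 receptors of laminin and perlecan, 2 rose on each matrix and 2 fell on the stiff one. Of 10 genes for heparan sulfate chain synthesis, 2 fell on soft and 3 on stiff gels. Of 7 proteases and inhibitors, 2 rose on each matrix and 2 fell on the stiff one. Beside these small counts, 14.1% of all tested genes rose and 13.3% fell on soft gels, and 14.0% and 13.7% on stiff gels. DAG1, which encodes dystroglycan, a receptor for laminin and perlecan, rose by 1.48 ± 0.23 and 1.04 ± 0.23 on the log2 scale on soft and stiff gels, and SDC4, the heparan sulfate carrying syndecan 4, by 1.39 ± 0.13 and 1.45 ± 0.14. TIMP3, a metalloproteinase inhibitor that binds to matrix, rose by 1.82 ± 0.12 and 1.62 ± 0.12, and ADAMTS1, a secreted protease, by 1.26 ± 0.13 and 1.02 ± 0.13. XYLT1, which starts the sugar chains of proteoglycans such as perlecan, fell on both (-1.25 ± 0.33 and -1.81 ± 0.34). MMP2 fell on stiff gels (-1.57, edgeR adjusted p = 0.00588) and was not called on soft gels (-0.25, edgeR adjusted p = 0.4165). Without the first stiff library of 4 days the stiff estimates of DAG1 and XYLT1 were 0.66 and -2.51, and without the second 1.34 and -1.36. Between the matrices at 4 days 2 of the 51 were called, both lower on stiff gels. Over all tested genes 0.247% were called and 0.213% were called lower. The 2 were MMP2 (-2.50 ± 0.25, edgeR adjusted p = 0.0151) and MMP9 (-3.13 ± 0.32, edgeR adjusted p = 0.0151), the gelatinases that cut basement membrane proteins. The paper already reports both as decreased from the same RNA-seq data, so these calls are not independent of that report. Without the first stiff library of 4 days the estimates of MMP2 and MMP9 were -2.49 and -2.97, and without the second -2.50 and -3.27. The counts of the listed genes depended more on these libraries. Between the matrices at 4 days, 3 of 52 tested genes were called higher and 26 lower without the first (55.8%, against 31.1% of all genes), and 2 of 53 higher and 3 lower without the second (9.43%, against 3.63%). At 2 days 2 were higher and 3 lower in both cases, where 0.792% and 0.813% of all genes were called. In the interaction 3 were higher and 14 lower without the first (32.7%, against 20.9%) and none was called without the second. Over time on stiff gels, 10 rose and 21 fell without the first (59.6%, against 52.1%) and 16 rose and 12 fell without the second (52.8%, against 43.8%). On soft gels 15 rose and 15 fell in both cases (57.7% and 56.6%, against 52.9% and 52.7%).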

How the data were processed

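LX-2 cells under 4 conditions were profiled by RNA-seq, with 2 libraries each, grouped by the treatment in the sample labels. The stiffness in kPa was taken from the study's text. The authors trimmed reads with Trim Galore, mapped them to hg19 with STAR 2.7.1a and counted reads per gene with HTSeq, and these counts were deposited as they were. The gene annotation and strand setting are not given in the sources used here, and the labels and the methods name different sequencers. A second table deposited by the authors gives FPKM for these genes, whose ratios to the counts were those of median-of-ratios size factors rather than of library totals. Dividing counts by FPKM gave gene lengths that were whole (within 0.01 bases) in 100% of 20029 genes.

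Totals were 19955975 to 27263935 counts per library, with a median of 22598474. Counts were analysed in R 4.3.3 with edgeR 4.0.16: filterByExpr by condition kept 14570 genes, TMM factors were 0.8704 to 1.08, and 1 quasi-likelihood model of 4 conditions was fitted to all 8 libraries (common dispersion 0.0281, prior degrees of freedom 3.86). The call threshold was an adjusted p (Benjamini-Hochberg) of 0.05, and a standard error was obtained as the absolute log2 fold change over the root of the F statistic. DESeq2 1.42.0, the study's tool, and limma 3.58.1 on log2 FPKM with pseudocounts of 1 and 0.1 were alternatives, as were other scalings and filters, separate fits, a replicate block and leaving out each library. The fit with GC and length offsets, the voom fit with sample weights and the crossed pairing were added after the data were seen. For these, symbols were matched to the GENCODE v44lift37 annotation directly (21538) or by a RefSeq synonym (1549), giving a GC content for 96.89% of tested genes. The edgeR, limma and DESeq2 steps were tested on simulated data.

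The members and gene lists were chosen with earlier results of these data known. All 9 members are named. Of the 58 other basement membrane genes, the laminin chains are named and, per comparison, at most the 6 called genes with the largest change, and for each member the 3 genes with the highest Pearson r. A listed item is not reported here. No column was left without a sample.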

Additional observations from a re-analysis of the deposited data

How the results depend on the processing

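With 2 libraries per condition, the count of members called depended on single libraries. A fit that leaves out 1 library holds a single one of that condition, so the spread between the pair does not enter it. Leaving out 1 library at a time gave 0 members at 2 days between the matrices, 0 to 7 at 4 days, 0 to 4 for the interaction, 0 to 6 over time on the soft matrix and 0 to 7 on the stiff matrix. The 0 on the soft matrix came without the first soft library of 2 days, and without the first soft library of 4 days 1 was left. On the stiff matrix 0 were left without the second stiff library of 2 days and 1 without the first. Fitting each comparison on its own 4 libraries gave 1 member at 2 days between the matrices and 0 over time on the stiff matrix. At 4 days between the matrices DESeq2 called 1 member (LAMA4) and the fit with GC and length offsets 1 (LAMB1). Of 531 estimates for single members under settings other than leaving out a library, 504 kept their direction and side of the threshold and 3 changed sign. Of 360 with a library left out, 310 kept both and 11 changed sign. The causes were not tested.

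Signs changed for LAMB2 at 4 days between the matrices without scaling factors (-0.065) or the first soft library of 4 days (-0.034, range -0.034 to 0.15), and for LAMC1 there without the second soft (0.09) or second stiff (0.15) library of 4 days (range -0.43 to 0.15). HSPG2 changed sign at 2 days without the first soft library (0.026, range -0.23 to 0.026), at 4 days without the second soft (0.14) or second stiff (0.44) library (range -1.70 to 0.44), and in the interaction without the same libraries (0.24 and 0.56, range -1.59 to 0.56). NID1 did in the interaction without the second stiff library of 4 days (0.11, range -0.49 to 0.11). Over time on the stiff matrix LAMB1 changed sign without scaling factors (-0.052) or the first stiff library of 4 days (-0.18, range -0.18 to 0.27), and LAMB3 without the second stiff library of 2 days (0.013, range -0.090 to 0.013) or with the offsets (0.43).

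Replicate numbers did not pair the samples, since deviations from the condition means correlated at -0.036, -0.49, 0.077 and 0.025 in the 4 comparisons of 2 conditions. With the replicate block 0, 0, 0, 3 and 3 members were called at 2 days, at 4 days, in the interaction and over time on the soft and the stiff matrix. HSPG2 on the stiff matrix was then not called (-1.98, edgeR adjusted p = 0.0631). Crossed pairing at 4 days called 0 members and 62 genes. Over all genes the block gave 14 at 4 days against 36, and 2626 and 2543 over time against 3985 and 4024.

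Over all genes the count at 2 days, 0, was 28 with DESeq2, 667 in the separate fit, 187 with voom weights, 1 with limma on log2(FPKM + 0.1) and 7 with no filter on FPKM. At 4 days, 36 became 164 with DESeq2, 0 in the separate fit, 131 with the offsets, 4 with voom weights and 20 with no filter on FPKM. For the interaction, 0 became 3 with DESeq2 and 3 with limma on log2(FPKM + 0.1). Over time, 3985 on the soft matrix became 7261 in the separate fit and 7152 with voom weights, and 4024 on the stiff matrix became 0 and 2024. Leaving out a library gave 0 to 122, 0 to 4676, 0 to 3139, 347 to 7941 and 470 to 7826 genes in the same order. A p-value that missed the threshold in groups of 2 does not show that a gene was the same, and low members such as LAMA4 rest on few counts.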
